A study of Mus musculus with 6 samples.

Results

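The comparison set tumour cells from lungs of mice given GW2580 against tumour cells from lungs of mice given vehicle, both collected 2 weeks after the cells were injected. Members were chosen by sample title alone, which gave 4 of the 6 arrays of the series, 2 from the GW2580 group and 2 from the vehicle group. All groups carried GFP-tagged MVT1 cells, a metastatic mouse mammary tumour line, injected into a vein of syngeneic FVB/N mice at 3000000 cells. Treated mice were gavaged daily with GW2580 at 160 mg per kg from 1 week after injection, and control mice with vehicle. GFP-positive cells were sorted from the lungs, and 2 µg of their RNA went into labelling for Affymetrix arrays that cover the mouse genome. The other 2 arrays came from vehicle mice at 1 week; they entered the fit for its estimate of spread and are given as a further level. The labels give 2 mice behind each vehicle group and no number of mice behind the GW2580 arrays, so p-values measure the spread between these samples, which may be technical. The question was how inhibition of the CSF1 receptor alters the expression profile of tumour cells growing in the lung.

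CSF1 is a secreted growth factor that acts through a receptor tyrosine kinase, CSF1R, found mainly on monocytes and macrophages, which need the signal for survival and growth. IL-34 is a second ligand of the same receptor. GW2580 blocks the kinase activity of CSF1R. Many tumour cells secrete CSF1, and macrophages drawn to lung metastases return growth factors, cytokines and proteases to the tumour cells. MVT1 was derived from a mammary tumour driven by Myc and VEGF transgenes, so the Myc and Vegfa probe sets can read endogenous transcripts and, where the sequence is shared, transgenic ones. The line is a single one grown in culture before injection.

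All values are RMA log2 levels, and a difference is the mean of the GW2580 arrays minus the mean of the 2-week vehicle arrays, with its standard error (SE) from limma. Of 18193 genes with a probe set, 13090 passed a filter at a mean level of 4.97. Arrays of a group correlated at 0.9921 for vehicle and 0.988 for GW2580. Replicate 2 of the 2-week vehicle group stood apart in the control probe sets: its beta-actin 3' signal exceeded the 5' signal by 1.2 and its Gapdh signal by 0.92, against 0.379 to 0.499 and -0.133 to -0.101 on the other arrays. The keratin genes Krt8 and Krt18, which mark luminal mammary epithelium, read 13.5 to 13.6 and 12.9 to 13.1 on the 4 arrays. Epcam read 6.85 to 7.31, while the basal keratin gene Krt14 stayed at 4.68 to 5.08, around the filter. The pan-leukocyte gene Ptprc read 6.85 to 7.12 on the same arrays, and the part of RNA from other cells in the results was not tested.

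After adjustment over 13090 genes, 48 genes (0.367%) passed limma's test at an adjusted p under 0.05. Of these, 9 (0.0688%) were higher and 39 (0.298%) lower with GW2580, and 31 of the 48 differed at least 2-fold. With every array shifted to a common 75th percentile, the split was 20 higher and 47 lower. The median difference over all genes was -0.05 with RMA values as deposited and 0.01 after that shift, so small differences are read against this median. In 2398 genes (18.3%) both GW2580 arrays were above both vehicle arrays, and in 4118 genes (31.5%) both were below. The difference was above 0 in 41.7% of genes. The calls rested on few arrays. None passed without replicate 2 of the vehicle group (1513 genes at an unadjusted p under 0.05) or without replicate 1 of GW2580 (1596 genes), 6 passed without replicate 1 of the vehicle group, and 167 passed without replicate 2 of GW2580. With the 1-week group out of the fit, 0 genes were called (2120 at an unadjusted p under 0.05). All 48 differences kept their sign with any 1 array left out, but this could not have turned out otherwise. In all 48 the 2-week groups did not overlap, and the 1-week arrays do not enter the difference.

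**Figure D1:**
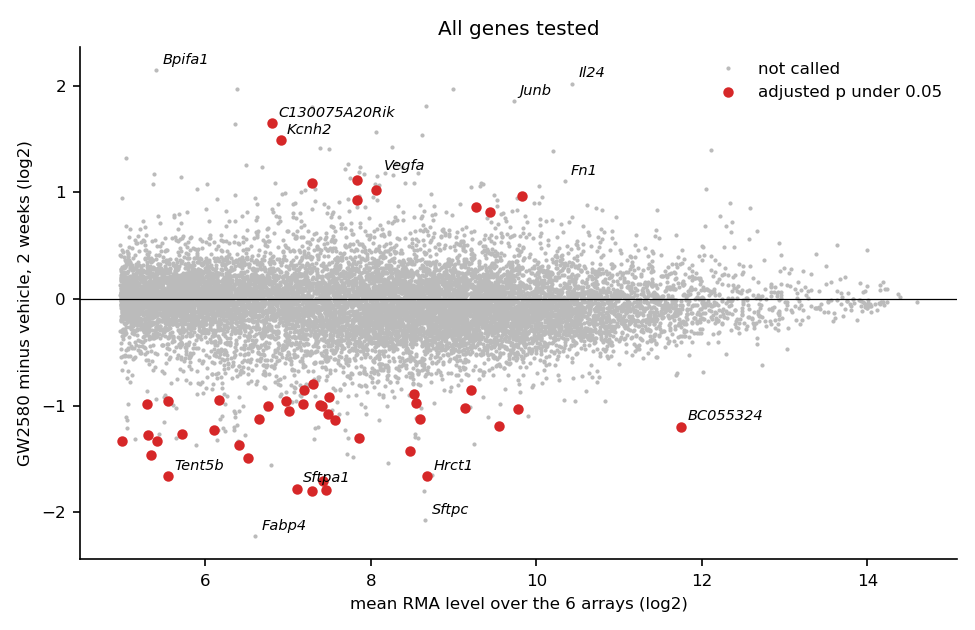
Each point is a gene, with its mean RMA log2 level over the 6 arrays on the x axis and the difference GW2580 minus vehicle at 2 weeks, in log2 units, on the y axis. The 48 genes past an adjusted p of 0.05 (red) lie mostly below 0, with 39 lower and 9 higher, and larger differences such as Il24, Junb, Sftpc and Fabp4 did not pass.

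Among the called genes, the deepest falls were in Scara5, Itga10, Sftpa1 and Slc10a6. Scara5, a scavenger receptor that takes up ferritin, read 8.39 and 8.84 on the vehicle arrays and 6.55 and 7.08 on the GW2580 arrays. It fell by 1.80 (SE 0.26, limma adjusted p 0.045), although its second probe set, at a mean of 5.04 near the filter, differed by 0.08. Itga10, the alpha 10 subunit of a collagen-binding integrin, read 8.88 and 8.87 with vehicle and 6.97 and 7.21 with GW2580. It fell by 1.79 (SE 0.23, limma adjusted p 0.0443). The vehicle arrays of this gene were nearly equal. Sftpa1, which encodes surfactant protein A of the alveolar lining, read 8.22 and 7.58 with vehicle against 6.48 and 5.76, and fell by 1.78 (SE 0.27, limma adjusted p 0.0489). Slc10a6, a transporter of sulphated steroids, read 8.64 and 8.75 against 6.60 and 7.38, and fell by 1.71 (SE 0.23, limma adjusted p 0.0445). In each of these genes the groups did not overlap. The GW2580 arrays differed more from each other than the vehicle arrays did, slightly in Scara5 and Sftpa1 and clearly in Itga10 and Slc10a6. At 1 week Itga10 read 6.03 and 6.78 and Slc10a6 6.66 and 6.47.

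The list of largest falls had 4 further genes. Tent5b, a poly(A) polymerase, read 6.65 and 6.74 with vehicle and 4.85 and 5.22 with GW2580 (difference -1.66, SE 0.16, limma adjusted p 0.0347). Hrct1 read 10.0 and 9.61 with vehicle and 7.93 and 8.38 with GW2580 (difference -1.66, SE 0.19, limma adjusted p 0.0443). Both were at or near their 1-week levels with GW2580, which were 5.06 and 4.80 for Tent5b and 8.03 and 8.13 for Hrct1. Cox7c, a subunit of cytochrome c oxidase, read 7.40 and 7.56 with vehicle against 5.81 and 6.18 (difference -1.49, SE 0.19, limma adjusted p 0.0443). The other subunit genes of this enzyme that were tested read far higher, such as Cox4i1 at 13.1 on both vehicle arrays. They differed by -0.15 (Cox5a) to 0.12 (Cox8a), and what the Cox7c probe set reads was not tested. Sft2d3, of a vesicle transport family, read 6.25 and 6.49 against 4.79 and 5.03 (difference -1.46, SE 0.15, limma adjusted p 0.0347). On Tent5b and Sft2d3 the GW2580 arrays read near 4.97, the value used as filter on a gene's mean over the 6 arrays.

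The remaining 31 genes that fell had adjusted p-values from limma between 0.0347 and 0.0483. Metabolic genes among them were Fbp2, the muscle form of fructose-1,6-bisphosphatase (-1.42), Gdpd1, a glycerophosphodiester phosphodiesterase (-1.33), Smpdl3b, a phosphodiesterase of the sphingomyelinase family (-1.13), and Fabp5, a fatty acid-binding protein (-1.19). Fabp5 read 9.99 and 10.0 with vehicle and 8.63 and 9.03 with GW2580, and its second probe set differed by -1.32. Sftpd, the gene of surfactant protein D, fell by 1.12. Of transporters, Flvcr1, which exports haem, fell by 0.89 (but -0.15 on its other probe set), Slc35g1 by 1.00 and Mfsd6 by 1.00. Genes that act on RNA, chromatin or transcription were Taf4b, a subunit of a TFIID complex (-0.97, and -0.83 and -0.34 on its other probe sets), Rnpc3, of the minor spliceosome (-0.99), the methyltransferase gene N6amt1 (-0.79) and the zinc finger genes Zfp365 (-1.27) and Zfp938 (-0.95). The remaining named falls were Lgi2 (-1.30), Rwdd3 (-1.27), Tbc1d8, a Rab GTPase activator (-1.22), Kank3 (-1.05), Prxl2a (-1.02), Ctla2b (-0.996), Ccser1 (-0.98), the proprotein convertase gene Pcsk4 (-0.95), the centriole gene Ofd1 (-0.95), M1ap (-0.92) and Ankrd29 (-0.85). Transcripts with less known about them were 1500015A07Rik (-1.37), 1110006O24Rik (-1.33), BC055324 (-1.196), AI506816 (-1.03) and the pseudogene Gpr137b-ps (-0.85), whose probe set may also read its parent gene. BC055324 read 12.6 on both vehicle arrays and 11.5 and 11.4 with GW2580.

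Snhg4 and Snhg7, host transcripts from whose introns small nucleolar RNAs are cut, also fell, by 1.12 (SE 0.14) and 1.08 (SE 0.14), each with a limma adjusted p of 0.0443. Snhg4 read 9.41 and 9.26 with vehicle and 8.14 and 8.28 with GW2580, and Snhg7 read 8.20 and 8.41 against 7.17 and 7.28. The wider family was looked up after these values were seen. Of 12 Snhg genes tested, 11 had a negative difference and 9 had both GW2580 arrays below both vehicle arrays, beside 31.5% of all genes. Their median was -0.51, with a range of -1.12 to 0.10.

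The 9 genes that rose covered membrane, transcription and secretory proteins. C130075A20Rik, an uncharacterised transcript, read 5.77 and 5.55 with vehicle and 7.62 and 7.01 with GW2580 (difference 1.65, SE 0.20, limma adjusted p 0.0443). Kcnh2, a voltage-gated potassium channel gene, read 6.92 and 6.20 with vehicle and 8.04 and 8.07 with GW2580 (difference 1.49, SE 0.22, limma adjusted p 0.0454). Kcnh2 varied more between the vehicle arrays than between the treated ones, and it was the only one of the 48 that still passed without replicate 1 of the vehicle group. Ikzf2, which encodes the zinc finger factor Helios, read 7.42 and 7.17 against 8.60 and 8.22 (difference 1.12, SE 0.16, limma adjusted p 0.045). Prelp, a leucine-rich proteoglycan of basement membranes, read 7.10 and 7.01 against 8.25 and 8.04 (difference 1.09, SE 0.13, limma adjusted p 0.0443), with 1.05 on its other probe set. Levels at 1 week were 6.62 and 6.69 for Prelp, below both 2-week groups, and 6.16 and 6.07 for Kcnh2.

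Nab2, a corepressor of EGR transcription factors that EGR itself induces, read 7.37 and 7.54 with vehicle and 8.48 and 8.47 with GW2580 (difference 1.02, SE 0.13, limma adjusted p 0.0443). Csrnp1, a nuclear protein encoded by an immediate early gene, read 9.11 and 9.34 against 10.3 and 10.1 (difference 0.97, SE 0.14, limma adjusted p 0.045), with 0.28 on its other probe set. Both stood clear of the vehicle range and near their 1-week levels of 8.22 and 8.28 for Nab2 and 10.1 and 10.0 for Csrnp1. Chid1, a secreted chitinase-domain protein, read 7.10 and 7.38 against 8.11 and 8.22 (difference 0.93, SE 0.14, limma adjusted p 0.0483), with 0.33 on its second probe set. Sdf2l1, a cofactor of chaperones in the endoplasmic reticulum, read 8.62 and 8.72 against 9.50 and 9.58 (difference 0.87, SE 0.13, limma adjusted p 0.0463). Hcfc1r1, a regulator of host cell factor 1, read 9.24 and 9.18 against 10.04 and 10.01 (difference 0.81, SE 0.12, limma adjusted p 0.0463), with 0.95 on its other probe set. Of the 48 genes, 24 had a single probe set, and 16 had others above the filter. These 17 further probe sets had the same sign in 16 cases and at least 0.5 times the size in 12.

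**Figure D2:**
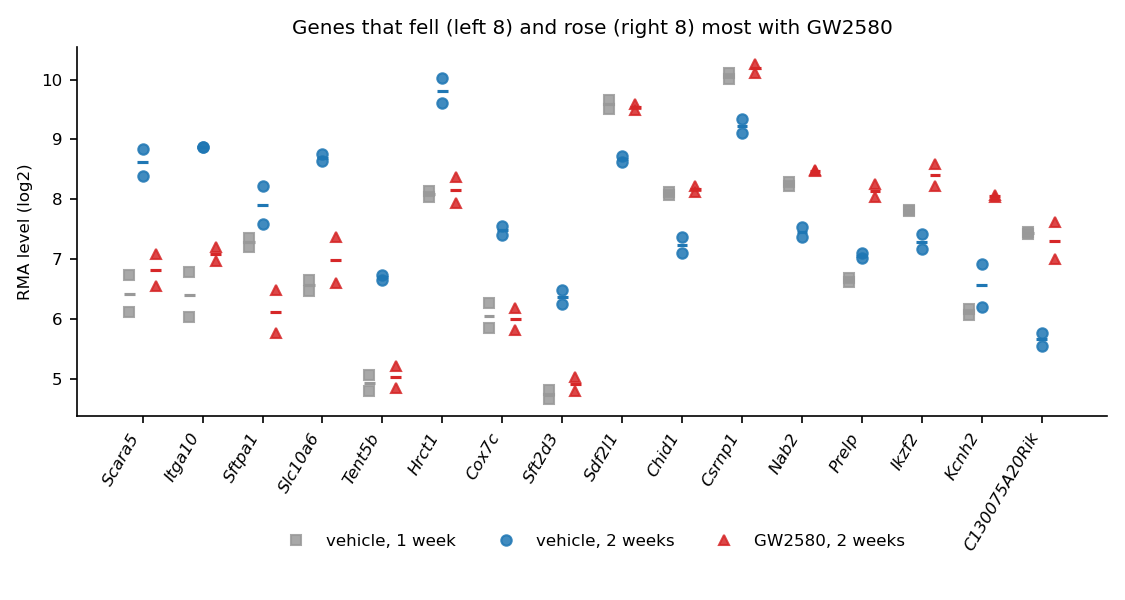
RMA log2 level on each array for the 8 genes that fell most and the 8 that rose most among those past an adjusted p of 0.05, with 2 arrays per group and a bar at the group mean. In all 16 the GW2580 arrays lie outside the range of the 2-week vehicle arrays, as with Itga10 at 6.97 and 7.21 against 8.87 and 8.88.

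Genes of the CSF1 axis did not pass the test. The target of the drug, Csf1r, read 7.57 and 7.52 with vehicle and 7.22 and 7.84 with GW2580, a difference of -0.02 (SE 0.20, limma adjusted p 0.977) that ranged from -0.33 to 0.29 with each array left out and was 0.05 at a common 75th percentile. The ligand gene Csf1 read 9.34 and 9.64 with vehicle and 10.2 and 9.93 with GW2580, a difference of 0.58 (SE 0.17, limma adjusted p 0.137), and its 3 other probe sets differed by 0.49 to 0.84. Il34, the second ligand, read 8.17 and 7.91 against 8.22 and 8.56, a difference of 0.35 (SE 0.16, limma adjusted p 0.312). Receptor levels thus overlapped between the groups. Both ligand genes were above the 2-week vehicle range on both treated arrays, as were 18.3% of all genes, and Il34 only narrowly on replicate 1. At 1 week Csf1 read 10.2 and 9.96 and Il34 read 8.58 and 8.74. Csf2, which encodes the granulocyte-macrophage factor GM-CSF, read 5.25 and 5.38 against 6.95 and 5.62, so its difference of 0.97 (SE 0.39) came mainly from replicate 1. Csf3, which encodes the granulocyte factor G-CSF, overlapped between groups (difference 0.67, SE 0.29, limma adjusted p 0.273). Of 8 genes of the axis tested, 0 passed, 5 had a positive and 3 a negative difference, and the median was 0.19 (0.08 without replicate 2 of GW2580 and 0.34 without replicate 1).

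Macrophage and monocyte markers overlapped between the groups in most cases. Of 25 tested, 0 passed, 18 had a negative difference, 5 had both GW2580 arrays below both vehicle arrays (beside 31.5% of all genes) and 2 above (beside 18.3%), and the median was -0.11. The mean level of the list was 7.11 and 7.28 on the vehicle arrays and 6.96 and 7.24 on the GW2580 arrays, so the groups overlapped. The complement genes C1qa and C1qc, made by tissue macrophages, gave the smallest p: C1qa read 6.77 and 5.93 with vehicle and 5.62 and 5.61 with GW2580 (difference -0.73, SE 0.24, limma adjusted p 0.18). C1qc differed by -0.58 (SE 0.16, limma adjusted p 0.13), and Ccr2, a chemokine receptor of monocytes, by 0.41 (SE 0.17, limma adjusted p 0.272). The macrophage marker Adgre1 read 5.001 and 5.19 against 5.04 and 5.18, just above the filter in both groups. Without replicate 1 of GW2580 the median of the list was 0.09 and without replicate 2 of the vehicle group 0.02.

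Immediate early genes, which growth factors and stress induce within minutes of a signal, had the highest median of the lists examined. Of 23 transcription factor genes of this kind, 1 rose (Csrnp1), beside 0.0688% of all genes, and 22 did not pass. The difference was positive in 20, and the median was 0.69 against -0.05 over all genes. In 15 of the 23 both GW2580 arrays were above both vehicle arrays, beside 18.3% of all genes, and in 2 they were below. Egr1, a zinc finger factor of growth signalling, read 10.7 and 11.5 with vehicle and 12.8 and 12.2 with GW2580 (difference 1.40, SE 0.27, limma adjusted p 0.0783). Nr4a2, an orphan nuclear receptor, read 7.03 and 7.05 against 8.58 and 7.98 (difference 1.24, SE 0.19, limma adjusted p 0.0504). Junb, a subunit of AP-1, read 9.34 and 7.77 against 10.5 and 10.3 (difference 1.86, SE 0.42, limma adjusted p 0.0919), the second vehicle value lying on the array with the raised 3' to 5' signal. Without that array the Junb difference was 1.07. Fosb (1.39, SE 0.36), Ier3 (0.90, SE 0.22) and Jun (0.85, SE 0.19) also separated the groups, whereas Srf and Klf10 were lower on both GW2580 arrays, at -0.32 and -0.38. Among the 4 arrays, 18 of the 23 genes were highest on replicate 1 of GW2580. The list mean was 10.5 there and 10.1 on replicate 2, against 9.59 and 9.80 on the vehicle arrays and 10.4 and 10.5 at 1 week, and without replicate 1 of GW2580 the median was 0.33.

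Feedback genes that such signals induce gave smaller differences. Of 22 NAB corepressor, dual-specificity phosphatase, Sprouty and related genes, 1 rose (Nab2), beside 0.0688% of all genes, and 21 did not pass. The difference was positive in 16, and the median was 0.29. It was 0.14 without replicate 1 of GW2580 and 0.15 without replicate 1 of vehicle. Dusp1, a phosphatase that switches off MAP kinases, read 12.1 and 12.3 with vehicle and 12.9 and 12.8 with GW2580 (difference 0.63, SE 0.14, limma adjusted p 0.0865). Nab1, the paralogue of Nab2, differed by -0.04 (SE 0.15), and Spry1, Spry2 and Spry4, inhibitors of receptor tyrosine kinase signalling, overlapped between groups. Among 6 genes of the EGF family tested, 0 passed and the median was 0.43: the receptor ligands Epgn (0.93, SE 0.29, limma adjusted p 0.164), Hbegf (0.90, SE 0.38, limma adjusted p 0.268) and Tgfa (0.49, SE 0.15, limma adjusted p 0.161) were above the vehicle range on both GW2580 arrays. Hbegf read 8.95 and 9.32 with vehicle and 10.7 and 9.33 with GW2580, so on replicate 2 it barely exceeded vehicle.

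Cytokine, chemokine and NF-kB target genes were not called, and 21 of 25 tested had a positive difference (median 0.42). Il24, a cytokine of the IL-10 family, read 8.18 and 9.12 with vehicle and 10.9 and 10.4 with GW2580 (difference 2.02, SE 0.40, limma adjusted p 0.079). Ptgs2, the inducible prostaglandin synthase, read 6.53 and 7.15 against 9.06 and 7.75 (difference 1.56, SE 0.39, limma adjusted p 0.11), with 2.05 on its other probe set. That other probe set passed when all probe sets were tested (limma adjusted p 0.0473). Ccl7, a monocyte chemoattractant, read 7.55 and 7.97 against 9.19 and 8.51 (difference 1.09, SE 0.27, limma adjusted p 0.11). All 3 genes separated the groups, and at 1 week they read 12.6 and 11.4, 9.09 and 8.82, and 9.22 and 8.65 in the same order. Cxcl1, a neutrophil chemoattractant, and Ccl2, a monocyte chemoattractant, differed by 1.04 (SE 0.28) and 0.69 (SE 0.25). Tnf and Il1b, the classic inflammatory cytokines, overlapped between groups at differences of 0.02 and 0.16.

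Interferon-stimulated genes, which answer type I and type II interferon, were also uncalled but mostly positive. Of 38 tested, 0 passed, 35 had a positive difference, 22 had both GW2580 arrays above both vehicle arrays (beside 18.3% of all genes) and 0 had both below, and the median was 0.43. Oas2, an enzyme of the antiviral 2-5A system, read 7.01 and 7.57 with vehicle and 8.94 and 8.08 with GW2580 (difference 1.22, SE 0.28, limma adjusted p 0.0971). Oasl2, a related gene, read 8.53 and 8.91 against 10.1 and 9.49 (difference 1.05, SE 0.21, limma adjusted p 0.079), and Cmpk2, a nucleotide kinase, 7.98 and 7.62 against 8.47 and 8.38 (difference 0.63, SE 0.15, limma adjusted p 0.1). Irf7, a transcription factor that amplifies the response, differed by 0.78 (SE 0.23, limma adjusted p 0.141). The 3 members with a negative difference were Mx1 (-0.13), Ifit2 (-0.05) and Oas3 (-0.04). As with the immediate early genes, replicate 1 of GW2580 was the higher one, with 32 of the 38 genes highest there. The list mean was 9.66 there and 9.21 on replicate 2, against 8.90 and 9.14 with vehicle. Without replicate 1 the median was 0.24, and without replicate 2 it was 0.67. Iigp1, an interferon-inducible GTPase, showed this most plainly at 10.1 and 8.26 with GW2580 and 8.53 and 9.32 with vehicle.

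The promoters of these genes carry the interferon-stimulated response element in part. The element was searched as GAAANNGAAA on both strands of the 300 bases from 250 before each start site, in RefSeq sequences of build GRCm38.p6. It was found in 14 of the 29 members with a sequence (48.3%) and in 362 of 10510 tested genes with a sequence (3.44%). The stretches around it are shown for 4 members whose GW2580 arrays were both above vehicle, with every match in the stretch in capitals and each read 5' to 3' along the gene's strand. Ifit1 (an RNA-binding antiviral protein, difference 0.80, SE 0.30) has it at chr19:34640760-34640819 on the plus strand, and Ifit3 (of the same family, 0.77, SE 0.24) at chr19:34583348-34583407 on the plus strand. Rsad2 (the antiviral enzyme viperin, 0.58, SE 0.23) has it at chr12:26456538-26456597 on the minus strand, and Oas1a (2-5A synthetase, 0.48, SE 0.18) at chr5:120907526-120907570 on the minus strand. All 4 stretches lie upstream of the start site, and a match describes the sequence only.
Ifit1: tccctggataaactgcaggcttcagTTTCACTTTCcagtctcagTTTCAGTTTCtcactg
Ifit3: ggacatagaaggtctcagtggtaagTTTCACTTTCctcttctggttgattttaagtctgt
Rsad2: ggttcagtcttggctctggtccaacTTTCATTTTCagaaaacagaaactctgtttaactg
Oas1a: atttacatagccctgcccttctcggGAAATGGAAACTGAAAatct
The Ifit1 and Oas1a stretches hold 2 matches each, which overlap in Oas1a, and those of Ifit3 and Rsad2 hold 1. The CArG box, to which serum response factor binds at many immediate early genes, was searched in its usual form, on both strands of the same window. It was found in 2 of 18 immediate early genes with a sequence (11.1%, Egr2 and Srf) and in 165 of 10510 genes (1.57%).

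**Figure D3:**
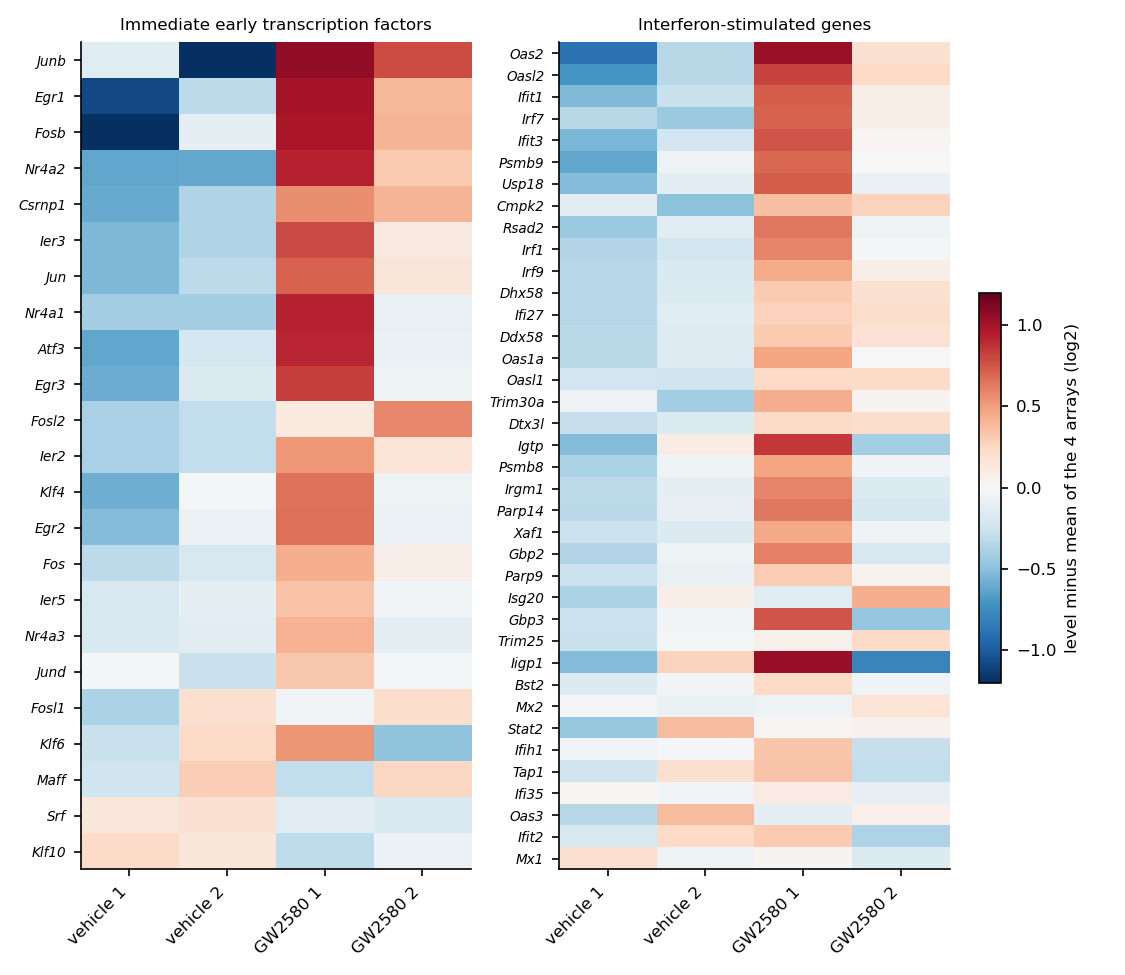
Colour gives each gene's RMA log2 level minus its mean over the 4 arrays, for the 23 immediate early genes (left) and 38 interferon-stimulated genes (right), with genes ordered by their difference. Both blocks are mostly red on the GW2580 arrays, more so on replicate 1 (list means 10.5 and 9.66) than on replicate 2 (10.1 and 9.21).

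Genes of peptide presentation on MHC class I differed little. Of 13 tested 0 passed, 12 had a positive difference, and the median was 0.23, or 0.06 without replicate 1 of GW2580. The immunoproteasome subunit genes Psmb10 (0.65, SE 0.14, limma adjusted p 0.0915) and Psmb9 (0.69, SE 0.28, limma adjusted p 0.247) and the peptide-loading chaperone gene Calr (0.63, SE 0.14, limma adjusted p 0.0904) had the smallest p. Calr read 11.9 and 12.2 with vehicle and 12.7 and 12.6 with GW2580, and its 2 other probe sets differed by 0.64.

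Vegfa, the main growth factor of blood vessels, was the largest difference of its family. It read 7.67 and 7.69 with vehicle and 8.44 and 9.22 with GW2580, a difference of 1.15 (SE 0.23, limma adjusted p 0.079), with 0.85 on its other probe set and 7.64 and 7.81 at 1 week. Both GW2580 arrays were thus above all 4 vehicle arrays, replicate 2 more so. Nrp1, a coreceptor for VEGF, differed by 0.61 (SE 0.17, limma adjusted p 0.139) (0.04 to 0.83 on its 3 other probe sets), and Pgf by -0.26 (SE 0.19, limma adjusted p 0.525), a sign that turned without replicate 1 of GW2580. Of 10 family members 0 passed and the median was 0.12. Among 25 hypoxia response genes 0 passed, 21 had a positive difference, and the median was 0.17 (0.07 without replicate 1 of vehicle and 0.32 without replicate 1 of GW2580). Ero1a, an oxidase of the endoplasmic reticulum, read 10.3 and 10.7 with vehicle and 11.1 and 11.6 with GW2580 (difference 0.86, SE 0.22, limma adjusted p 0.114), while Car12, a carbonic anhydrase, read 7.13 and 7.32 against 5.53 and 6.44 (difference -1.24, SE 0.27, limma adjusted p 0.0907). In 17 glycolysis genes 0 passed, 13 had a positive difference, and the median was 0.23 (0.08 without replicate 2 of GW2580 and 0.13 without replicate 1 of vehicle). Pfkl (0.96, SE 0.32), Hk2 (0.66, SE 0.24) and Aldoc (0.64, SE 0.20), which encode phosphofructokinase, hexokinase and aldolase forms, had limma adjusted p-values of 0.156 to 0.208. The hypoxia and glycolysis lists were highest on replicate 2 of GW2580, at means of 9.55 and 11.5. On replicate 1 they were 9.19 and 11.1, close to the vehicle means of 9.05 and 9.29 for hypoxia and 10.9 and 11.1 for glycolysis.

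Lipid synthesis genes were not called. Of 20 cholesterol synthesis and uptake genes, 17 had a positive difference and the median was 0.23, but 0.06 without replicate 1 of GW2580, and the list mean was 9.01 and 8.55 with GW2580 against 8.57 and 8.56 with vehicle. Fdps, farnesyl diphosphate synthase, read 10.0 and 9.84 with vehicle and 10.9 and 10.2 with GW2580 (difference 0.63, SE 0.32, limma adjusted p 0.344). Hsd17b7, another enzyme of the pathway, differed by -0.65 (SE 0.23, limma adjusted p 0.199; other tested probe sets -0.29 and -0.22) and Insig1, which restrains the pathway, by 0.47 (SE 0.23, limma adjusted p 0.34). The 13 fatty acid synthesis genes had a median of 0.04. The desaturase genes Scd1 and Scd2 differed by 0.31 (SE 0.13) and 0.27 (SE 0.13), and Me1, malic enzyme, by 0.15 (SE 0.13). Other tested probe sets gave 0.18 for Scd1, 0.615 and 1.29 for Scd2 and -0.11 for Me1.

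Ribosome biogenesis genes had the lowest median of the lists. Of 29 tested, a list that includes Myc and its targets, 0 passed, 27 had a negative difference, 19 had both GW2580 arrays below both vehicle arrays (beside 31.5% of all genes), and the median was -0.32. Across the fits with an array left out the median lay between -0.40 and -0.21. Myc itself read 13.2 and 13.4 with vehicle and 12.5 and 12.8 with GW2580 (difference -0.62, SE 0.21, limma adjusted p 0.193), and 12.0 and 12.6 at 1 week. Nhp2, of the small nucleolar RNA-protein complex, read 12.0 and 12.1 against 11.03 and 11.6 (difference -0.72, SE 0.19, limma adjusted p 0.129), and Gnl3, nucleostemin, 11.3 and 11.4 against 10.8 and 10.7 (difference -0.61, SE 0.13, limma adjusted p 0.0806). Pes1, of the large-subunit assembly complex, differed by -0.63 (SE 0.17, limma adjusted p 0.127) but by 0.45 on its other probe set. The nucleolar genes Npm1 and Fbl differed by -0.12 and -0.13.

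Cytosolic ribosomal protein genes were negative in 29 of 31 cases, but their median of -0.05 equalled that of all genes and was 0.01 at a common 75th percentile. None passed, and Rpl12 (-1.11, SE 0.21, limma adjusted p 0.0761) and Rps25 (-0.72, SE 0.15, limma adjusted p 0.0823) stood apart from the other members, of which Rps19 came next at -0.18. With vehicle Rpl12 read 10.0 and 10.2 and Rps25 9.76 and 9.86, on 1 probe set each. Most members read far higher, such as Rps19 at 13.8 on both vehicle arrays. Of 40 oxidative phosphorylation genes 1 fell, Cox7c, beside 0.298% of all genes, and its probe set read far below the other Cox genes. The other 39 did not pass, and the median of the list was -0.09. The 19 p53 targets were negative in 14 cases and 12 had both GW2580 arrays below both vehicle arrays (beside 31.5% of all genes), with a median of -0.24 that lay between -0.29 and -0.24 with any array left out. None passed. Aen, a nuclease induced in apoptosis, read 10.5 and 10.4 with vehicle and 9.58 and 9.77 with GW2580 (difference -0.74, SE 0.13, limma adjusted p 0.0621), but 1 of its 3 other probe sets differed by 0.36. Ccng1, cyclin G1, differed by -0.53 (SE 0.14, limma adjusted p 0.12) and Perp, an apoptosis effector, by -0.49 (SE 0.14, limma adjusted p 0.139), while Cdkn1a and Mdm2, the best known p53 targets, differed by -0.13 and -0.20.

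Cell cycle genes had no called member. Of 30 mitosis and G2/M genes 28 had a positive difference, 11 had both GW2580 arrays above both vehicle arrays (beside 18.3% of all genes), and the median was 0.18, which was -0.01 without replicate 1 of GW2580 and 0.39 without replicate 2. The ubiquitin-conjugating enzyme gene Ube2c read 10.6 and 10.5 with vehicle and 11.3 and 10.98 with GW2580 (difference 0.60, SE 0.16, limma adjusted p 0.127), and the mitotic kinase genes Plk1 and Aurka differed by 0.47 (SE 0.14) and 0.50 (SE 0.16). The mitosis list mean was 9.43 on replicate 1 of GW2580 and 9.06 on replicate 2, against 9.01 and 9.08 with vehicle. The 27 DNA replication and G1/S genes had a median of 0.01, with the licensing factor genes Cdc6 at 0.49 (SE 0.18) and Cdt1 at -0.32 (SE 0.12) and the clamp loader gene Rfc3 at -0.35 (SE 0.14).

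Stress and hormone lists were mixed. Of 22 endoplasmic reticulum chaperone and unfolded protein response genes 1 rose, Sdf2l1, beside 0.0688% of all genes. In 13 both GW2580 arrays were above both vehicle arrays, beside 18.3% of all genes. The median of the 22 was 0.18, or 0.08 without replicate 2 of GW2580 and 0.12 without replicate 1 of vehicle. The 19 ATF4 response genes had a median of -0.02 (0.04 at a common 75th percentile), with the lipoprotein receptor gene Vldlr at -0.73 (SE 0.18, limma adjusted p 0.111; other tested probe sets -0.66 to -0.15), the amino acid transporter gene Slc7a5 at -0.84 (SE 0.37) and the phosphatase regulator Ppp1r15a at 0.46 (SE 0.19). Of 16 heat shock genes 0 passed (median -0.07). Hspa1a, an inducible Hsp70 gene, read 5.67 and 6.05 with vehicle and 6.78 and 6.19 with GW2580 (difference 0.62, SE 0.26). Hspa1b of the same list read 11.4 and 11.6 with vehicle and 11.3 and 10.6 with GW2580 (difference -0.55, SE 0.285). Hspa4l differed by -0.51 (SE 0.13), and the probe set of Hspa4 with the highest mean gave -0.30 while its 3 others gave 0.90, 1.21 and -0.04. The Hspa4 probe set at 1.21 passed when all probe sets were tested (limma adjusted p 0.0473). Other probe sets of Hspa4l gave -0.47 to 0.35. The 16 NRF2 and glutathione genes had a median of -0.02 (0.04 at a common 75th percentile). Gclc, the rate-limiting enzyme of glutathione synthesis, differed by -0.61 (SE 0.13, limma adjusted p 0.0889), Osgin1 by 0.28 (SE 0.15), and Nfe2l2, which encodes NRF2, by 0.34 (SE 0.13) but by -1.22 on its other probe set.

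Of 23 glucocorticoid-responsive genes 2 fell, Slc10a6 and Tent5b, beside 0.298% of all genes. In 8 both GW2580 arrays were above both vehicle arrays (beside 18.3% of all genes) and in 5 below (beside 31.5%). The median of the list was -0.05 (0.01 at a common 75th percentile). The responders Fkbp5, Tsc22d3 and Per1 differed by -0.40 (SE 0.21), -0.39 (SE 0.29) and -0.11 (SE 0.25), and each overlapped between groups. Dusp1, Errfi1 and Tat of the same list were above the vehicle range on both GW2580 arrays. They differed by 0.63 (SE 0.14), 0.47 (SE 0.13) and 0.46 (SE 0.16). Slc10a6 was also the 1 member that fell among 17 acute-phase genes (beside 0.298% of all genes), whose median was -0.04 and 0.02 at a common 75th percentile. There the secreted proteins Orm1 and Lcn2 differed by -1.27 (SE 0.49) and -0.95 (SE 0.59), and the IL-6 receptor chain gene Il6st and its feedback inhibitor Socs3 by 0.79 (SE 0.16) and 0.77 (SE 0.17). Lcn2, which encodes a siderophore-binding protein, read 11.6 and 12.4 with vehicle and 10.0 and 12.0 with GW2580, so its low value was on replicate 1. None of 16 circadian clock genes passed (median -0.01, and 0.05 at a common 75th percentile). The repressor gene Cry1 read 6.46 and 7.13 against 5.44 and 5.78 (difference -1.18, SE 0.22, limma adjusted p 0.0709), whereas Bhlhe40 and Dbp, both rhythmic transcription factors, differed by 0.83 (SE 0.18) and 0.77 (SE 0.27). Among 22 FOXO factors and targets 0 passed (median 0.02). Arrdc4, an arrestin-domain gene, differed by -1.29 (SE 0.29, limma adjusted p 0.0919), the muscle ubiquitin ligase gene Fbxo32 by -0.66 (SE 0.14) and Sesn3 by 0.81 (SE 0.18). Further probe sets of these genes gave smaller values, -0.13 for Arrdc4, -0.63 and -0.12 for Fbxo32 and 0.20 for Sesn3.

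Matrix genes gave 1 rise, Prelp, among 31 tested, beside 0.0688% of all genes. Of the 31, 23 had a positive difference and the median was 0.31 (0.17 without replicate 1 of GW2580). Fn1, fibronectin, read 9.57 and 9.92 with vehicle and 11 and 10.7 with GW2580 (difference 1.11, SE 0.18, limma adjusted p 0.053). Col6a1, a chain of collagen VI, read 7.70 and 7.65 against 10.2 and 8.80 (difference 1.81, SE 0.42, limma adjusted p 0.0967), and Col5a1 10.5 and 10.6 against 11.3 and 11.4 (difference 0.77, SE 0.12, limma adjusted p 0.053). Fn1 and Col5a1 were alike on both treated arrays, while Col6a1 was far higher on replicate 1. The interstitial collagen gene Col3a1 read 9.29 and 9.49 with vehicle and 10.9 and 8.98 with GW2580, and Dcn, decorin, 7.79 and 7.57 against 9.22 and 7.57. Fibroblast and smooth muscle markers had a list mean of 7.28 on replicate 1 of GW2580, 6.70 on replicate 2 and 6.89 and 6.93 with vehicle. That list shares Col1a1, Col1a2, Col3a1, Dcn and Lum with the matrix list, so the values are in part the same, and its part in the matrix differences was not tested. Acta2 and Tagln, smooth muscle genes outside the matrix list, read 7.22 and 6.84 and 6.91 and 6.57 with GW2580, against 7.14 and 7.18 and 6.75 and 6.67 with vehicle. Of the 11 fibroblast and smooth muscle markers 0 passed and the median was 0.10. Pdgfra, a receptor of fibroblasts, differed by -0.62 (SE 0.17, limma adjusted p 0.133) but by 0.27 on its other tested probe set. Fbln1 differed by 0.33 (SE 0.20) but by -0.08 on its other tested probe set, and Pdgfrb by -0.26 (SE 0.16).

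Of 21 proteases and inhibitors 0 passed, 15 had a positive difference, and the median was 0.12. Mmp13, a collagenase, read 4.60 and 6.19 with vehicle and 7.57 and 7.15 with GW2580 (difference 1.97, SE 0.44, limma adjusted p 0.0919). Serpinb2, plasminogen activator inhibitor 2, read 5.16 and 6.26 against 7.56 and 7.46 (difference 1.81, SE 0.42, limma adjusted p 0.0971). In both the vehicle arrays were far apart and the treated arrays close. Plau, urokinase, read 5.01 and 5.03 against 5.65 and 5.49 (difference 0.55, SE 0.12, limma adjusted p 0.0919), with 1.10 on its other probe set. Of 15 integrin subunit genes 1 fell, Itga10, beside 0.298% of all genes. The others lay between -0.28 and 0.46, with Itgb3 at 0.46 (SE 0.21). Itgb1, which pairs with the alpha 10 chain, read 11.8 on both vehicle arrays and 11.4 and 11.8 with GW2580.

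Among 20 TGF-beta and BMP genes 0 passed and the median was 0.31, or 0.19 without replicate 2 of GW2580 and 0.17 without replicate 1 of vehicle. The BMP target genes Id2 and Smad6 read 7.80 and 7.84 with vehicle against 8.48 and 8.60, and 5.45 and 5.33 against 6.06 and 6.31. Their differences were 0.72 (SE 0.13) and 0.79 (SE 0.14), each with a limma adjusted p of 0.0647, and the groups of both genes stood clear of each other. Ccn2, a secreted target of TGF-beta and YAP, read 11.3 and 11.1 against 10.6 and 10.1 (difference -0.86, SE 0.23, limma adjusted p 0.123). In 13 genes of epithelial or mesenchymal state 0 passed (median 0.13), with the transcription factor Snai1 at 0.66 (SE 0.16, limma adjusted p 0.108) and the junction gene Tjp1 at 0.29 (SE 0.14).

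Lung epithelium markers were mixed. Of 21 tested 2 fell, Sftpa1 and Sftpd, beside 0.298% of all genes, and 19 did not pass. In 11 both GW2580 arrays were below both vehicle arrays (beside 31.5% of all genes) and in 3 above (beside 18.3%). The median of the list was -0.23, or -0.37 without replicate 2 of GW2580. It was -0.17 at a common 75th percentile and -0.10 with the mean of all probe sets of a gene. Sftpc, the gene of surfactant protein C, specific to alveolar type II cells, read 9.98 and 9.25 with vehicle and 7.90 and 7.19 with GW2580 (difference -2.07, SE 0.37, limma adjusted p 0.0647). Sftpd read 7.499 and 7.13 against 6.10 and 6.28 (SE 0.16, limma adjusted p 0.0445), while Sftpb, of surfactant protein B, differed by -0.46 (SE 0.18, limma adjusted p 0.229). The alveolar genes Slc34a2 (-0.72, SE 0.18), Ager (-0.69, SE 0.21), Napsa (-0.59, SE 0.15) and Aqp5 (-0.43, SE 0.12) were also below the vehicle range on both treated arrays. Other alveolar members of the list were not: Hopx, of type I cells, was above it at 8.09 and 7.86 against 7.64 and 7.63 (difference 0.34, SE 0.14, limma adjusted p 0.262). The groups overlapped for Pdpn (0.31), Lpcat1 (0.24), Nkx2-1 (-0.04) and Etv5 (-0.23). These transcripts are not typical of mammary cells, and in RNA from a sorted pool fewer cells of a type and less RNA per cell cannot be told apart.

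Airway genes differed mainly between the GW2580 replicates. Scgb1a1, the secretoglobin of club cells, read 6.49 and 8.08 with vehicle and 10.9 and 7.59 with GW2580, so its difference of 1.97 had an SE of 1.02. Scgb3a2 read 4.71 and 5.40 against 7.88 and 5.52, and Cyp2f2, a club cell cytochrome, 4.58 and 4.99 against 6.88 and 4.97. Bpifa1, an airway secreted protein, was the largest positive difference among genes not called whose groups did not overlap, at 4.13 and 4.02 with vehicle and 8.15 and 4.28 with GW2580 (difference 2.15, SE 1.04, limma adjusted p 0.327). In each of these genes replicate 1 of GW2580 alone was high among the 2-week arrays, and replicate 1 of the 1-week group was the higher of its pair, at 11.3 for Scgb1a1 and 6.65 for Bpifa1. The surfactant genes were low on both GW2580 arrays, including the array on which the airway genes were high. The mean level of the whole list was 7.001 and 7.06 with vehicle and 7.15 and 6.61 with GW2580, and its part in other differences was not tested.

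**Figure D4:**
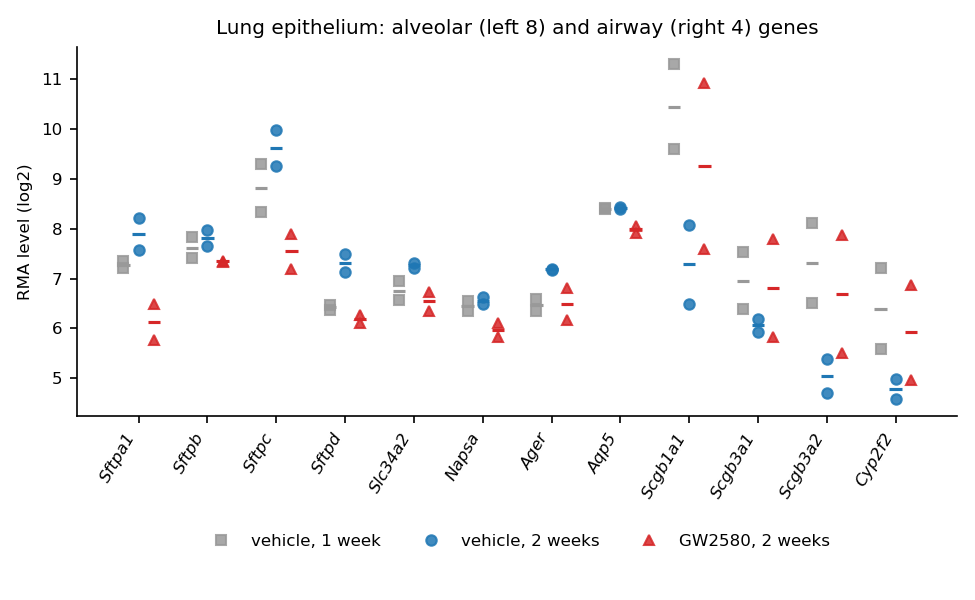
RMA log2 level on each array for 8 alveolar and 4 airway genes chosen from the lung epithelium list after their values were seen, with 2 arrays per group and a bar at the group mean. The 8 alveolar genes drawn are lower on both GW2580 arrays (Sftpc 7.90 and 7.19 against 9.98 and 9.25), while Hopx, not drawn, is higher (difference 0.34), and the airway genes are high on a single GW2580 array (Scgb1a1 10.9 against 7.59).

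Markers of other cells gave few separated members. Of 9 neutrophil markers 0 passed. S100a8, a calcium-binding protein of neutrophils, read 9.46 and 10.2 with vehicle and 6.93 and 9.14 with GW2580 (difference -1.80, SE 0.61, limma adjusted p 0.192), ranging from -2.90 to -0.69 with an array left out, while Mmp9 differed by 0.58 (SE 0.16) and Ltf by 0.46 (SE 0.26). Over these 9 markers the median was 0.07 but the mean -0.12. Mcpt8, a protease of basophils, read 7.47 and 7.89 against 5.93 and 6.32 (difference -1.55, SE 0.27, limma adjusted p 0.0606). Of 9 endothelial markers 0 passed, with a median of -0.06 and a mean of 0.06. Plvap, a protein of fenestrated vessels, read 8.34 and 7.06 against 9.43 and 9.06 (difference 1.54, SE 0.36, limma adjusted p 0.0971), whereas the other 8 lay between -0.52 (Tie1, SE 0.26) and 0.08, with Egfl7 at -0.21 (SE 0.13). Other tested probe sets of Egfl7 gave 0.11, -0.06 and -0.20. Of 9 lymphocyte and NK cell markers (median 0.20) and 6 erythroid and platelet markers (median 0.17) 0 passed, and their largest differences were 0.28 (Gzma, SE 0.21, and Cd2, SE 0.14) and 0.41 (Alas2, SE 0.19), with Cd4 at 0.22 (SE 0.16), Itga2b at 0.21 (SE 0.13) and Pf4 at 0.20 (SE 0.19). In the mammary epithelium list 0 of 16 passed and the median was 0.21. Csn3, which encodes kappa-casein, read 9.15 and 9.56 with vehicle and 10.3 and 10.2 with GW2580 (difference 0.90, SE 0.18, limma adjusted p 0.0783), while Krt19 differed by 0.94 (SE 0.32), Gata3 by 0.46 (SE 0.19), Epcam by 0.32 (SE 0.17) and the leukocyte gene Ptprc by -0.12 (SE 0.13). The other tested probe set of Epcam gave -0.01.

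The other large differences among uncalled genes without overlap were falls. Fabp4, a fatty acid-binding protein of adipocytes, capillary endothelium and macrophages, read 7.59 and 8.32 with vehicle and 4.97 and 6.51 with GW2580 (difference -2.22, SE 0.47, limma adjusted p 0.0859). Cirbp, the cold-inducible RNA-binding protein, read 10.1 and 9.001 against 7.65 and 8.37 (difference -1.54, SE 0.36, limma adjusted p 0.0971), and Fndc3c1 9.22 and 9.54 against 7.25 and 8.21 (difference -1.65, SE 0.33, limma adjusted p 0.079). Fabp4 and Fndc3c1 were lower on replicate 1 of GW2580 than on replicate 2, and at 1 week they read 6.44 and 5.77, and 8.75 and 9.47.

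**Figure D5:**
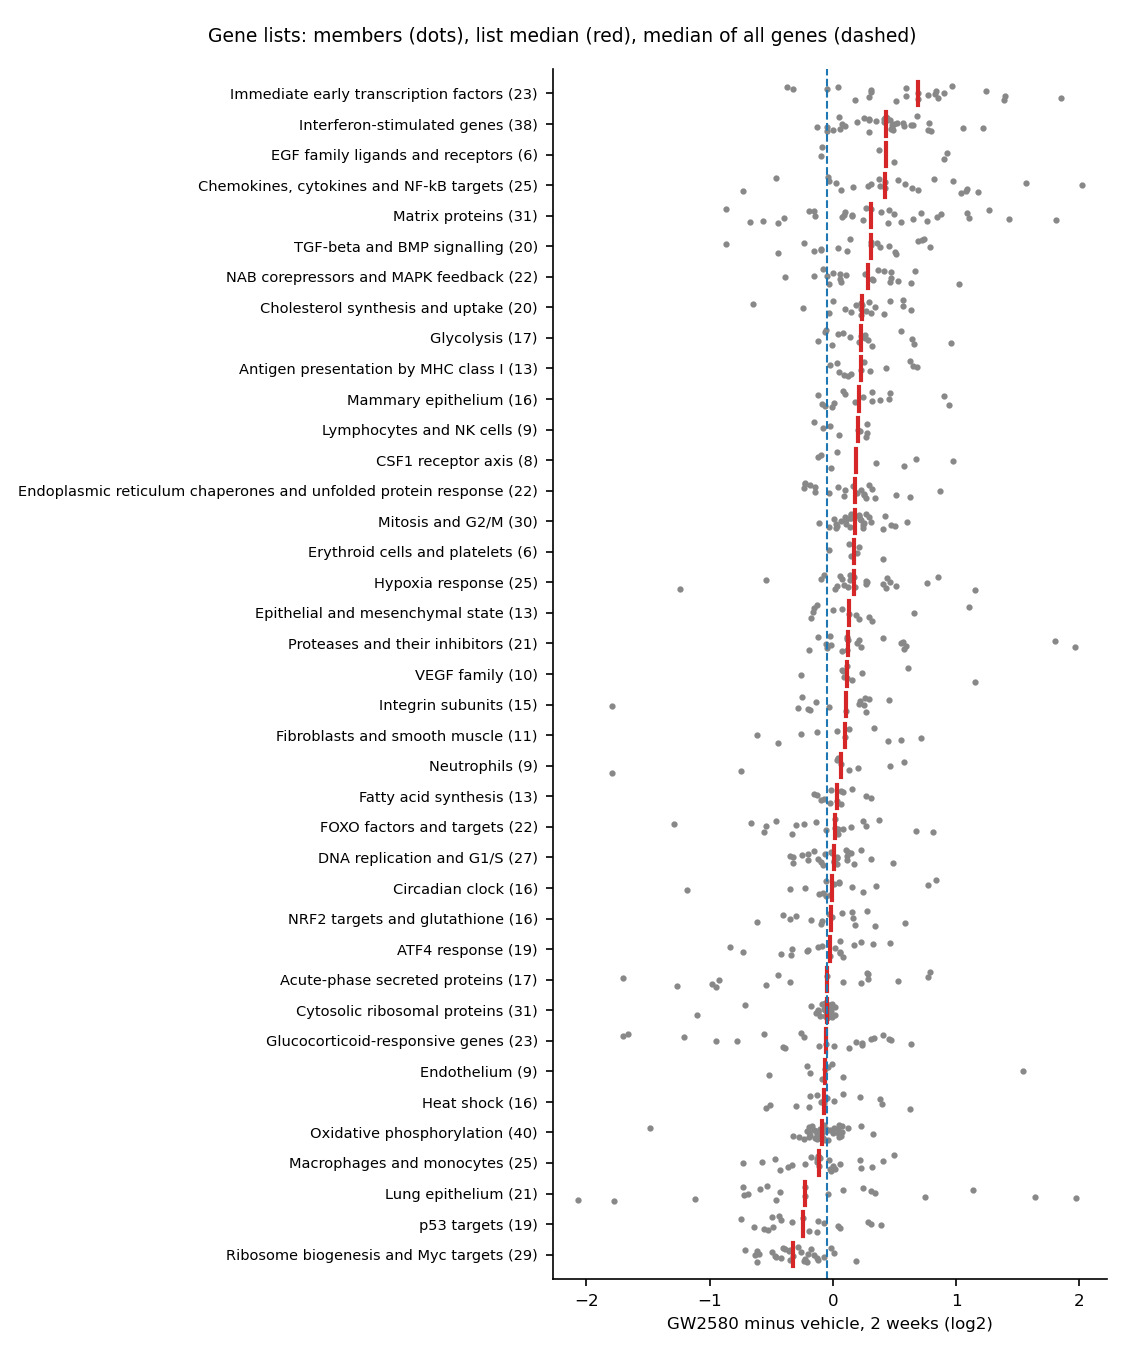
Differences GW2580 minus vehicle at 2 weeks, in log2 units, for the members of each gene list (dots, number tested in brackets), with the list median in red and the median of all genes, -0.05, as a dashed line. Immediate early genes have the highest median (0.69) and ribosome biogenesis genes the lowest (-0.32), and the wide spread of lung epithelium reflects Sftpc at -2.07 and Scgb1a1 at 1.97.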

How the data were processed

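The authors deposited 1 table of log2 values for 45101 probe sets, for which the submitters' processing notes name RMA. RMA corrects background, quantile-normalises arrays and summarises probes, which hides any change common to most genes. No version of RMA was found in the labels. After 64 control probe sets were left out, 34945 had 1 gene symbol, 932 several and 9160 none in the platform annotation; 34741 matched RefSeq by gene identifier. Per gene the probe set with the highest mean was kept, and genes below the 40th percentile (4.97) were left out. limma (version 3.58.1, R 4.3.3) fitted 3 group means over 6 arrays (3 residual and 4.97 prior degrees of freedom), with Benjamini-Hochberg adjustment over 13090 genes and calls under 0.05. Permuting 2 arrays against 2 allows no two-sided p under 0.333 and was left out. Arrays give no depth; their number limits precision. The fit was tested on simulated data. Replicate numbers are shared across groups, and the main fit did not pair arrays by them. Same-numbered deviations of the 2-week vehicle group correlated at 0.002 with 1-week vehicle and 0.009 with GW2580. Between 1-week vehicle and GW2580 they correlated at 0.292, and what these share was not tested. The members, gene lists and naming rule were chosen with earlier results of these data known. The rule named every called gene, per list up to 4 called or else the 3 with the smallest p, the 6 largest uncalled differences without overlap in each direction and Csf1r, Csf1, Il34, Vegfa, Myc, Epcam and Ptprc; other list members are examples chosen after their values were seen. Alternatives changed the arrays, the filter, the probe sets, the scaling and the variance model.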

Additional observations from a re-analysis of the deposited data

Results flagged for a closer look

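Probe sets without a gene symbol, which the comparison of named genes does not use, gave a signal of their own. When all 27022 probe sets above the filter were tested with limma, 111 passed, and 46 of these had no symbol. All 46 were higher with GW2580 and 0 lower, of 3290 such probe sets tested, whereas the 60 with 1 symbol split into 11 higher and 49 lower. The difference was positive in 60.9% of probe sets without a symbol and in 44.5% of those with 1. Over the 46, the difference had a median of 1.37 and a range of 0.86 to 1.90. Their median level was 6.0 and 5.94 on the vehicle arrays and 7.42 and 7.18 on the GW2580 arrays, with 7.08 and 7.23 at 1 week. Array by array, in fits added after seeing the data, 74 higher and 1 lower passed when vehicle replicate 1 at 2 weeks was omitted, and 0 when any other single array was (408 to 678 higher at an unadjusted p under 0.05). What these probe sets read was not tested.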

How the results depend on the processing

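The number of genes called (48, with 9 higher and 39 lower) moved with most settings. Fitting only the 4 arrays compared gave 0, 0 and 0 (lowest adjusted p 0.0835; at an unadjusted p under 0.05, 2120 genes). The replicate block gave 154, with 35 higher and 119 lower, but same-numbered deviations of the 2 groups compared correlated at only 0.009. Without the filter 74 passed, with 16 higher, and with all probe sets 111, with 59 higher. A common 75th percentile gave 20 higher and 47 lower. The eBayes trend and robust setting gave 131, with 33 higher and 98 lower. Leaving out each array in turn gave 0 to 167 calls, 0 to 41 higher and 0 to 126 lower. Total counts within 1.5 times were given by the stricter filter (41), the mean of probe sets (41) and the common 75th percentile (67). At that percentile the count called higher still moved, from 9 to 20. All 48 called genes also passed under the replicate block, without the filter and with trend and robust. At a common 75th percentile 45 did, and with the mean of probe sets 31. The larger set of calls made without replicate 2 of GW2580 did not hold all of the 48. All of the 48 that each setting measured kept their sign, but only the mean of probe sets and the common 75th percentile could have turned it. Among named genes not called, the sign turned for Hspa4 (0.44) and Nfe2l2 (-0.44) with the mean of probe sets, and for Csf1r with that mean (0.02) and at a common 75th percentile (0.045). With an array left out, Csf1r ranged from -0.33 to 0.29 and Pgf from -0.56 to 0.047. With 2 arrays a group, a lone array was assumed to vary like the other groups.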
